A study of Mus musculus with 23 samples.

Results

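The cholesterol and fatty acid synthesis genes are 34 named genes that encode the enzymes turning acetyl-CoA into cholesterol, the enzymes that make, lengthen and desaturate fatty acids, and the proteins that sense sterol and control both sets. They were chosen by name, as the probe sets whose only gene symbol was on the list. Of the 34, 33 were measured, out of 19937 genes in all. Acat2, which starts the sterol route, had no value and is not analysed here. They were followed over 23 arrays of sorted mouse bone marrow cells in 9 groups, in a study of the transcription factor C/EBPα and the leukaemia fusion MLL-AF9.

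Donor mice all carried floxed Cebpa (f/f) and received 3 injections of poly I:C, which switches on the interferon-inducible Mx1-Cre in blood cells and other tissues. Controls were Mx.1-Cre- and kept Cebpa, and knockouts were Mx.1-Cre+. Untransplanted marrow was taken 5 days after the injections and gave 4 arrays of control common myeloid progenitors (CMPs), 3 of control granulocyte-macrophage progenitors (GMPs) and 4 of knockout CMPs. For the other groups, stem-cell-enriched cells (KSLs, sorted as Lin-Sca-1+c-kit+) of either genotype were cultured with stem cell factor and thrombopoietin at 100 ng/ml each and IL-3 at 10 ng/ml, exposed to the MSCV-MLL-AF9-IRES-GFP virus, which delivers the fusion together with green fluorescent protein, and given with congenic helper marrow to lethally irradiated congenic mice. Leukaemic GMPs (L-GMPs) of control origin were on 2 arrays from primary and 2 from secondary recipients. Knockout L-GMPs were on 1 primary and 2 secondary arrays, which all came from 1 leukaemia whose primary recipient had received injected vectors encoding GM-CSF and IL-3. GFP+ KSLs (2 arrays) and GFP+ CMPs (3 arrays) came from recipients of MLL-AF9 knockout KSLs whose labels name neither leukaemia nor the cytokine vectors, and these 5 arrays are called MLL-AF9 knockout progenitors. Mice 9 and 11 gave both a KSL and a CMP array, and mouse 4 gave a CMP array only. The labels give no age for the animals and do not say whether the numbered samples of the remaining groups were separate mice, so a p-value here reflects how far these samples spread, which may be technical.

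Cholesterol is built from acetyl-CoA through mevalonate, isoprenoid units, squalene and lanosterol. When sterol in the endoplasmic reticulum runs low, SCAP carries the membrane-bound factors SREBP1 (Srebf1) and SREBP2 (Srebf2) to the Golgi, where they are cut and released to switch on the genes of the route. When sterol is plentiful, INSIG proteins hold SCAP back. SREBP2 acts mainly on cholesterol genes and on its own gene, and SREBP1 mainly on fatty acid genes. In blood progenitors the products supply membranes for dividing cells and the isoprenoid tails of signalling proteins.

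Promoter sequence is shown because many of these genes moved together. RefSeq (GRCm38.p6) gave 35 promoter windows for 26 of the 33 measured genes. The 250 bases before each start were searched on both strands for the CCAAT box (CCAAT) and a sterol element (TCACNCCAC). The capitals below mark those letters, written as ATTGG where the CCAAT box lies on the other strand. Hmgcs1, Idi1, Cyp51 and Srebf2 are shown, an early mevalonate enzyme, the isoprenoid isomerase, a lanosterol demethylase and the factor itself, all lower in control L-GMPs than in MLL-AF9 knockout progenitors.
Hmgcs1, chr13:119690101-119690350, plus strand: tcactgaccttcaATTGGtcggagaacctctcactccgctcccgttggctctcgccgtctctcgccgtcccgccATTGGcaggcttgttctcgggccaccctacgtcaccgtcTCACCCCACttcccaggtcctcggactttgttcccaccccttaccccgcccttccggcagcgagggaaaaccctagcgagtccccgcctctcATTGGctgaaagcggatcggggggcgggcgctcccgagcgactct
Idi1, chr13:8885356-8885605, plus strand: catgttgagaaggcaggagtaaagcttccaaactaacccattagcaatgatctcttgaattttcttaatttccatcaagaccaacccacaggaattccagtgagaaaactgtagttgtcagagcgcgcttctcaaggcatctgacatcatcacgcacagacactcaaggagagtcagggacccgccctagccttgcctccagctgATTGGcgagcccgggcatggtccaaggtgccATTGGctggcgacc
Cyp51, chr5:4104698-4104947, minus strand: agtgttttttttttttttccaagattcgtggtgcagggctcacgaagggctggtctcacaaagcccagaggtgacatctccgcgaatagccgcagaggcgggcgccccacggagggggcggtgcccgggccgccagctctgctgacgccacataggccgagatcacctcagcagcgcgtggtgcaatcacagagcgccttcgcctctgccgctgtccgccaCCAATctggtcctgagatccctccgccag
Srebf2, chr15:82147019-82147268, plus strand: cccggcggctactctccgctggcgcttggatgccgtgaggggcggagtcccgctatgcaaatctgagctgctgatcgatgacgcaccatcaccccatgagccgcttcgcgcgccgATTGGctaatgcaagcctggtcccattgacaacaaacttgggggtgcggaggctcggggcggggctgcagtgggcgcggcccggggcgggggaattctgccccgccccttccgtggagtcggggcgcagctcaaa
The Hmgcs1 window holds the sterol element on the gene's strand, its first base 137 bases before the start, and 3 CCAAT boxes on the other strand. Idi1 has 2 CCAAT boxes, Cyp51 1 and Srebf2 1. CCAAT was found in 21 of the 26 genes (80.8%), against 39.4% of 17461 coding genes and 37.5% of all 26994 genes with a window. By window the share was 62.9% of 35, against 33.8% of 32817. The GC box (GGGCGG) was also found in 21 of the 26 (80.8%, against 45.8% of coding genes), and the E-box (CACGTG) in 6 (23.1%, against 7.61%). The sterol element was found in Hmgcs1 alone (3.85% of the 26, against 1.2%). These shares were not tested, and a match is only a run of letters in this window.

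The values are log2 expression values, which compare arrays within a gene and not genes with one another, and no member value lay at the floor of 3. Scd1, a stearoyl-CoA desaturase, was the only member with a mean under 5, so its changes are compressed. Over the 9 group means, 26 of the 33 genes were lowest in an L-GMP group and 18 were highest in the MLL-AF9 knockout KSLs or CMPs. For 11 genes all 4 L-GMP group means lay below all 5 other group means, among them Hmgcs1, Idi1, Sqle, Lss, Cyp51, Scap and Fasn. For 5 of these, Idi1, Cyp51, Elovl6, Fads1 and Fads2, each of the 7 L-GMP arrays lay below each of the 16 other arrays. For Idi1 the gap was narrow, 5.918 in the primary knockout L-GMP array against 5.923 in KSL replicate 1. As 4 of the 9 groups were L-GMP groups, many genes could be lowest there, and the shares of all genes with these orders were not determined. Mvk, Fdps, Tm7sf2 and Insig2 were the 4 genes with their highest group mean in an L-GMP group. The median deviation of the 33 genes from their own means ran from -0.56 to -0.22 over the 7 L-GMP arrays and from -0.03 to 0.68 over the 16 others, so the arrays did not overlap on this summary.

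**Figure D1:**
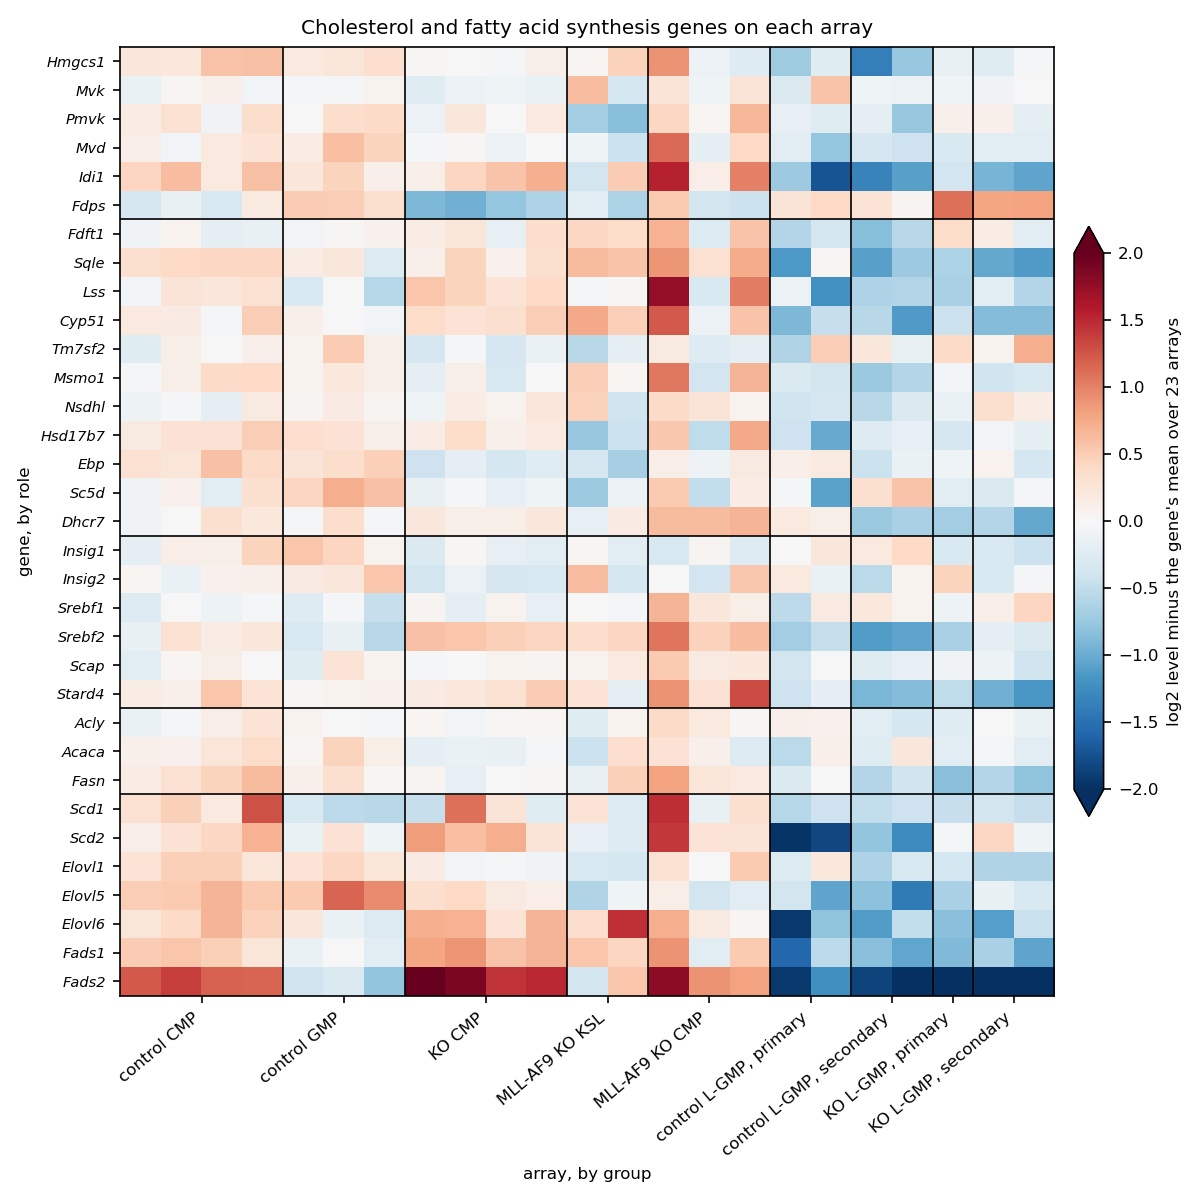
Heat map of the 33 genes (rows, by role: mevalonate enzymes, sterol enzymes, regulators, fatty acid synthesis, desaturases and elongases) on the 23 arrays (columns, by group), coloured by log2 level minus the gene's mean, with colours saturated beyond 2 in either direction. The L-GMP columns at the right are mostly blue, with the Fdps row as an exception, and MLL-AF9 knockout CMP replicate 1 is the reddest column.

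The sorted cells carried the markers of their labels in part. Cebpa was 7.54 ± 0.27 (SD, n = 4) in control CMPs and 7.59 ± 0.29 (n = 4) in control L-GMPs, against 5.31 ± 0.27 (n = 4) in knockout CMPs, 4.79 ± 0.42 (n = 3) in knockout L-GMPs and 4.82 ± 0.26 (n = 5) in MLL-AF9 knockout progenitors. Where the probe set lies relative to the deleted part was not checked here. The mean of 7 granulocyte-macrophage progenitor markers was 11.1 in GMPs and 10.1 to 10.7 in the L-GMP groups, but 5.66 and 6.35 in the MLL-AF9 knockout CMPs and KSLs. The latter carried more erythroid marker signal (means of 7.98 and 7.41 over 6 markers, against 5.52 to 5.93 in L-GMPs) and mast cell signal that ran from 5.89 to 9.96 over the 5 arrays. The mean of 6 adipocyte and stromal markers ran from 4.21 to 4.46 over the groups. Among them the collagen gene Col1a1 was 6.55 ± 0.51 (n = 4) in control L-GMPs, with 7.30 on 1 primary array, 6.08 ± 0.13 (n = 3) in knockout L-GMPs and 6.16 ± 0.30 (n = 5) in MLL-AF9 knockout progenitors, and its part in the results was not tested. In such bulk samples, fewer cells of a type and less RNA per cell cannot be told apart.

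Control L-GMPs had lower levels of many genes of the cholesterol route than MLL-AF9 knockout progenitors. Of the 33 genes, 18 fell and 1 rose, where 10.5% of all genes fell and 8.51% rose (limma, Benjamini-Hochberg adjusted p below 0.05 over all genes). The median change was -0.60 on the log2 scale over the 33, against -0.002 over all genes. The fall took in 2 of 6 mevalonate enzymes, 7 of 11 sterol enzymes, 3 of 6 regulators, 1 of 3 fatty acid synthesis enzymes and 5 of 7 desaturases and elongases. For 11 genes the 4 L-GMP arrays all lay below the 5 progenitor arrays, as was so for 4.43% of all genes. The groups differ in genotype and cell stage as well as in leukaemia, and these cannot be told apart here.

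Among the regulators, Srebf2, the cholesterol branch factor, was 7.01, 7.23, 6.60 and 6.66 in the control L-GMPs and 8.06 and 8.14 in the KSLs and 8.78, 8.17 and 8.33 in the CMPs. All L-GMP arrays lay below all progenitor arrays, and the change was -1.39 ± 0.12 (SE, adjusted p = 9.11e-07 with limma). Stard4, which moves cholesterol between membranes, was 6.51, 6.74, 6.0 and 6.05 against 7.19, 6.73, 7.81, 7.20 and 8.21. Its lowest progenitor array, KSL replicate 2, lay at the height of the highest L-GMP array, and the change was -1.02 ± 0.16 (adjusted p = 0.000372, limma). Scap, the carrier of the SREBPs, fell by 0.42 (adjusted p = 0.0178, limma). Insig1 and Insig2, the proteins that hold SCAP back, changed by 0.34 ± 0.13 (adjusted p = 0.0912) and -0.19 ± 0.20, and Srebf1 by -0.18 ± 0.15; none of these 3 passed the limma test.

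In the mevalonate section Idi1, which interconverts the isoprenoid building blocks, was 5.58, 4.57, 4.95 and 5.21 in control L-GMPs against 5.92, 6.80, 7.83, 6.42 and 7.31. The arrays did not overlap, and the change was -1.70 ± 0.26 (adjusted p = 0.000285, limma). A second Idi1 probe set changed by -0.73 ± 0.35 and did not pass (adjusted p = 0.192 over all probe sets, limma), so both the call and its size are uncertain for this gene. Where each Idi1 probe set lies in the genome was not checked here. Hmgcs1, which makes HMG-CoA from acetoacetyl-CoA, was 5.92, 6.40, 5.27 and 5.88 against 6.68, 7.10, 7.54, 6.52 and 6.38. Only primary replicate 2 reached the lowest progenitor array, and the change was -0.99 ± 0.20 (adjusted p = 0.0028, limma). Fdps, which makes farnesyl diphosphate at the branch to both sterols and protein prenylation, went the other way. It was 7.77, 7.90, 7.78 and 7.57 against 7.29, 6.87, 8.04, 7.14 and 7.08, with CMP replicate 1 above all L-GMPs. Its rise of 0.51 ± 0.17 (adjusted p = 0.0497, limma) became 0.09 (adjusted p = 0.73) with the mouse as a replicate block. That fit sets the L-GMPs against the progenitor level of mouse 9, whose CMP array is replicate 1. The call was also lost without any 1 of 7 arrays, with changes from 0.40 to 0.56. These were the 4 L-GMP arrays, KSL replicate 2 and CMP replicates 2 and 3. Mvk, Pmvk and Mvd, the kinases and decarboxylase between, changed by -0.12, -0.14 and -0.53 and did not pass.

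Of the sterol enzymes, squalene epoxidase (Sqle), a rate-controlling step, was 5.61, 6.77, 5.67 and 6.02 against 7.39, 7.33, 7.63, 7.06 and 7.49. Primary replicate 2 was the highest L-GMP array and still lay below all progenitors, and the change was -1.36 ± 0.19 (adjusted p = 0.000116, limma). Cyp51, the lanosterol demethylase, was 5.86, 6.29, 6.19 and 5.62 against 7.51, 7.23, 7.98, 6.64 and 7.33, a change of -1.35 ± 0.20 (adjusted p = 0.000235, limma) with no overlap. Lss, which closes the squalene ring into lanosterol, was 5.23, 4.13, 4.73 and 4.75 against 5.32, 5.37, 7.11, 5.04 and 6.37, and fell by 1.04 (adjusted p = 0.0261, limma). Its spread in the CMPs was wide, and the call was lost without primary L-GMP replicate 2 (-0.77), either secondary L-GMP array (-1.04 and -1.05) or KSL replicate 2 (-1.03). Fdft1, squalene synthase, fell by 0.94, Msmo1 by 0.86, Dhcr7 by 0.60 and Nsdhl by 0.53 (adjusted p from 0.000848 to 0.0141, limma). Tm7sf2, Hsd17b7, Ebp and Sc5d, further steps from lanosterol to cholesterol, lay between -0.30 and 0.22 and did not pass.

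The desaturases and elongases held the largest changes. Fads2, the delta-6 desaturase at the entry to long polyunsaturated fatty acids, was 5.56, 6.27, 5.63 and 5.16 in control L-GMPs against 7.12, 8.04, 9.27, 8.38 and 8.29. It fell by 2.46 ± 0.25 (5.50-fold, adjusted p = 3.95e-06, limma), with no overlap. Elovl6, which lengthens palmitate, was 5.33, 6.45, 6.14 and 6.76 against 7.62, 8.72, 7.99, 7.44 and 7.29 and fell by 1.70 ± 0.26 (adjusted p = 0.000266, limma). Scd2, a stearoyl-CoA desaturase, was 6.44, 6.59, 7.61 and 7.15 against 8.24, 8.15, 9.83, 8.68 and 8.67 and fell by 1.68 ± 0.22 (adjusted p = 5.84e-05, limma). In both genes the arrays did not overlap. Fads1, the delta-5 desaturase, fell by 1.45 ± 0.21 and Elovl5, an elongase of polyunsaturated chains, by 0.67 ± 0.17. Upstream, Fasn, the fatty acid synthase, was 7.10, 7.39, 6.81 and 6.98 against 7.24, 7.86, 8.19, 7.63 and 7.59 and fell by 0.61 ± 0.15 (adjusted p = 0.00892, limma). Acly and Acaca, which make its substrates, changed by -0.15 and -0.11 and did not pass, nor did Scd1 (-0.75 ± 0.33) and Elovl1 (-0.22 ± 0.11).

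**Figure D2:**
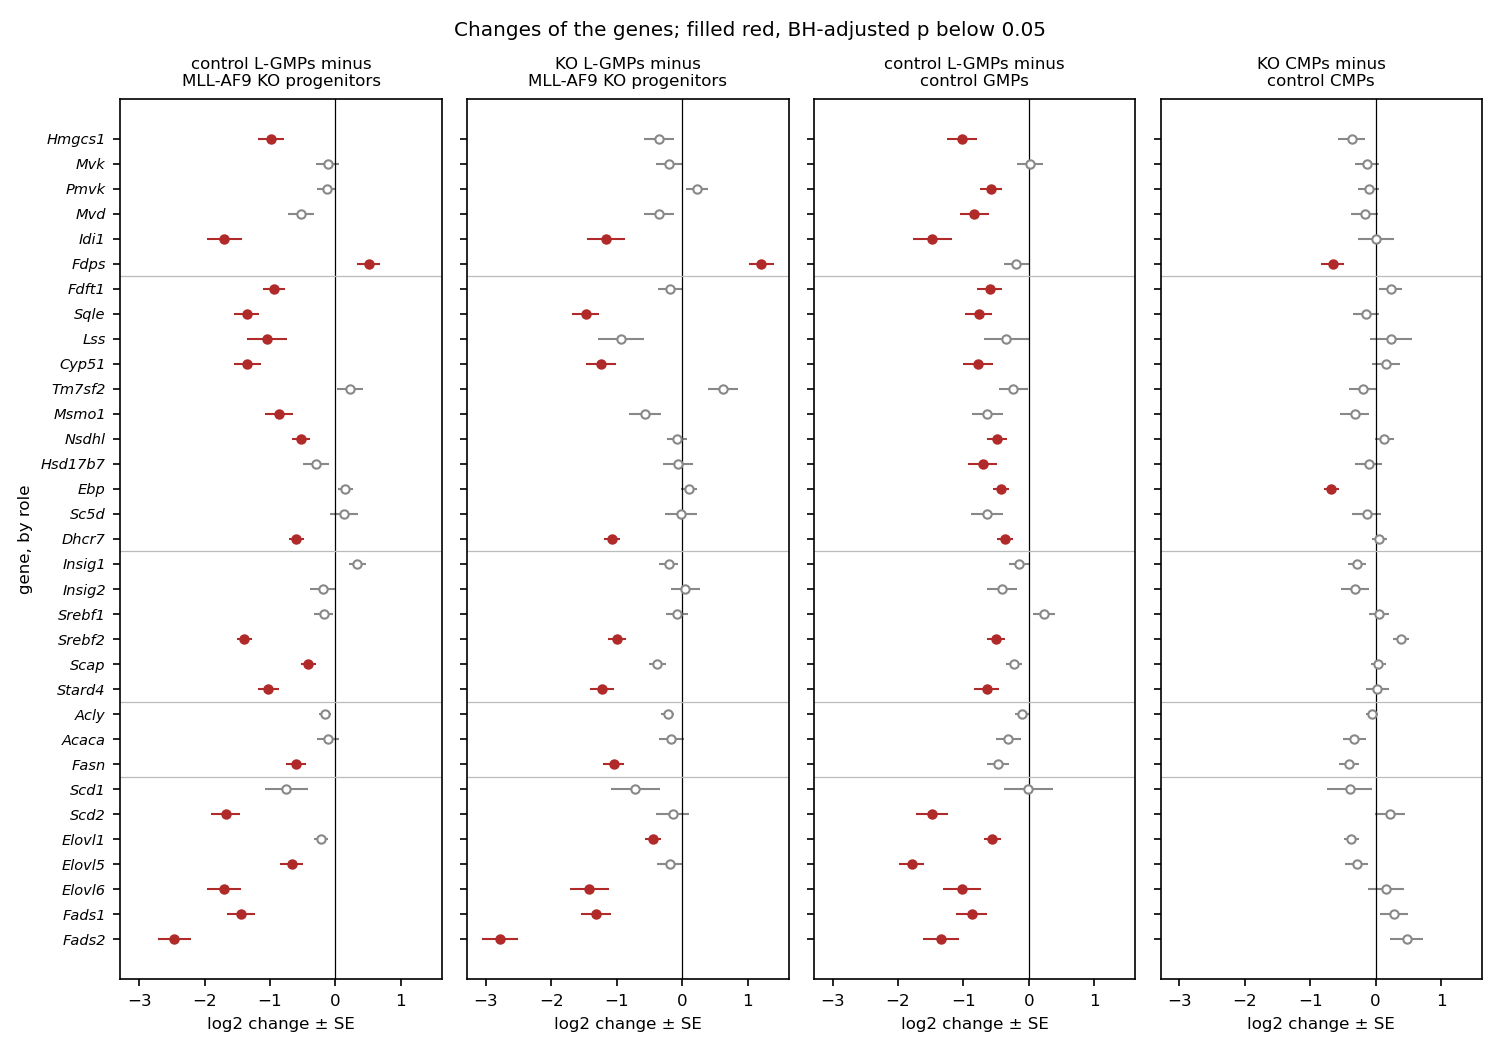
Log2 change with its standard error (horizontal axis) for each of the 33 genes (rows, by role, separated by grey lines) in 4 comparisons. Filled red points had a limma adjusted p below 0.05, 19, 12, 19 and 2 genes from the left panel to the right, and open grey points did not.

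With arrays weighted by their noise, 11 of these 19 genes were called, where 6.27% of all genes were, all lower: Hmgcs1, Idi1, Fdft1, Sqle, Cyp51, Srebf2, Stard4, Scd2, Elovl6, Fads1 and Fads2. A fit on the compared arrays alone called 4 (2.47% of all genes). In it the adjusted p was 0.00983 for Srebf2, and 0.0591 for Sqle and 0.0801 for Idi1, which did not pass (limma). High Xist, a sign of female cells, was seen on 5 of 5 progenitor arrays and 1 of 4 control L-GMP arrays. With it as a covariate 15 of the 19 were called, and Fdps (0.48), Nsdhl (-0.54), Scap (-0.34) and Fasn (-0.62) were not (adjusted p from 0.0513 to 0.185, limma). The calls of 14 genes held without any 1 array, and those of Fdps, Lss, Nsdhl, Scap and Elovl5 did not. Nsdhl was lost without secondary L-GMP replicate 1 (-0.46). Scap was lost without that array (-0.39), primary replicate 1 (-0.32) or KSL replicate 2 (-0.38), and Elovl5 without primary replicate 2 (-0.49), secondary replicate 2 (-0.52) or KSL replicate 2 (-0.54). With the mouse as a replicate block, where the progenitors are taken at the level fitted for mouse 9, Elovl5 missed the threshold (-0.68, adjusted p = 0.0577, limma). In settings added after seeing the data, 23 of the 33 fell against the CMPs alone, with a median of -0.77, where 26.7% of all genes passed. Against the KSLs alone 12 fell and 2 rose, with a median of -0.42, where 15.5% of all genes passed. Against the CMPs alone Fdps was not called (0.34). Against the KSLs alone Dhcr7 (-0.27, adjusted p = 0.254), Lss (-0.63), Nsdhl (-0.42), Scap (-0.33), Fasn (-0.48) and Elovl5 (-0.57) were not (limma).

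Markers of other cells moved in the same comparison. Of the erythroid markers 5 of 6 fell (median -2.0), of the megakaryocyte markers 2 of 4 (-1.10) and of the mast cell markers 1 of 5 (-0.72), while 7 of 7 granulocyte-macrophage progenitor and 5 of 6 mature neutrophil markers rose. Their part in the lipid gene changes was not tested. Of the cell cycle genes 2 of 11 rose, none passed as lower, and their median change was 0.25. Their mean level was 8.36 in primary and 8.18 in secondary control L-GMPs, against 7.91 in the KSLs and 8.30 in the CMPs. The part of cell cycle genes was not tested either.

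The knockout leukaemia, compared with the same progenitors, had 11 of the 33 genes lower and 1 higher, where 5.93% of all genes fell and 7.27% rose. The median change was -0.36, against -0.02 over all genes, and for 12 genes the 3 L-GMP arrays lay below all 5 progenitor arrays (6.01% of all genes). The 3 arrays come from 1 leukaemia, so they describe that leukaemia and the spread within it, and the comparison shares its progenitor arrays with the one above. The fall took in 3 of 11 sterol enzymes, 2 of 6 regulators, 4 of 7 desaturases and elongases, Idi1 and Fasn.

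Sqle was 6.12 in the primary array and 5.73 and 5.62 in the secondary ones, below all 5 progenitors, a change of -1.48 ± 0.21 (adjusted p = 0.000179, limma). Cyp51 was 6.32, 5.88 and 5.88 and fell by 1.24 ± 0.23. Dhcr7, the enzyme of the last reduction to cholesterol, was 6.27, 6.39 and 5.95 against 6.81, 7.14, 7.61, 7.60 and 7.65 and fell by 1.08 ± 0.13 (adjusted p = 2.11e-05, limma). All 3 sterol enzymes lay clear of the progenitor arrays. Stard4, at 6.41, 5.95 and 5.75, fell by 1.22 ± 0.18, and Srebf2, at 7.06, 7.52 and 7.42, fell by 1.00 ± 0.14 (adjusted p = 9.23e-05, limma). Idi1, at 5.92, 5.37 and 5.24, fell by 1.16 ± 0.30 (adjusted p = 0.0148, limma), although its second probe set changed by -0.27 ± 0.40 (adjusted p = 0.801) and the mean of the 2 by -0.72 (adjusted p = 0.126). In the primary array Idi1 stood close to KSL replicate 1.

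Fads2 was 5.51, 5.49 and 4.82 and fell by 2.79 ± 0.28 (6.90-fold, adjusted p = 4.69e-06, limma), again the largest change of the 33. Elovl6, at 6.42, 6.15 and 6.82, fell by 1.42 ± 0.29, and Fads1, at 6.26, 6.49 and 6.09, by 1.32 ± 0.23. Fasn, at 6.56, 6.80 and 6.59, lay below all progenitors and fell by 1.05 ± 0.17 (adjusted p = 0.000424, limma). Elovl1, an elongase of saturated chains, fell by 0.44, a call lost without either secondary array (-0.44 and -0.45) or KSL replicate 1 (-0.44). Fdps was 8.62, 8.29 and 8.31, above all 5 progenitor arrays, and rose by 1.21 ± 0.19 (2.31-fold, adjusted p = 0.000449, limma).

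**Figure D3:**
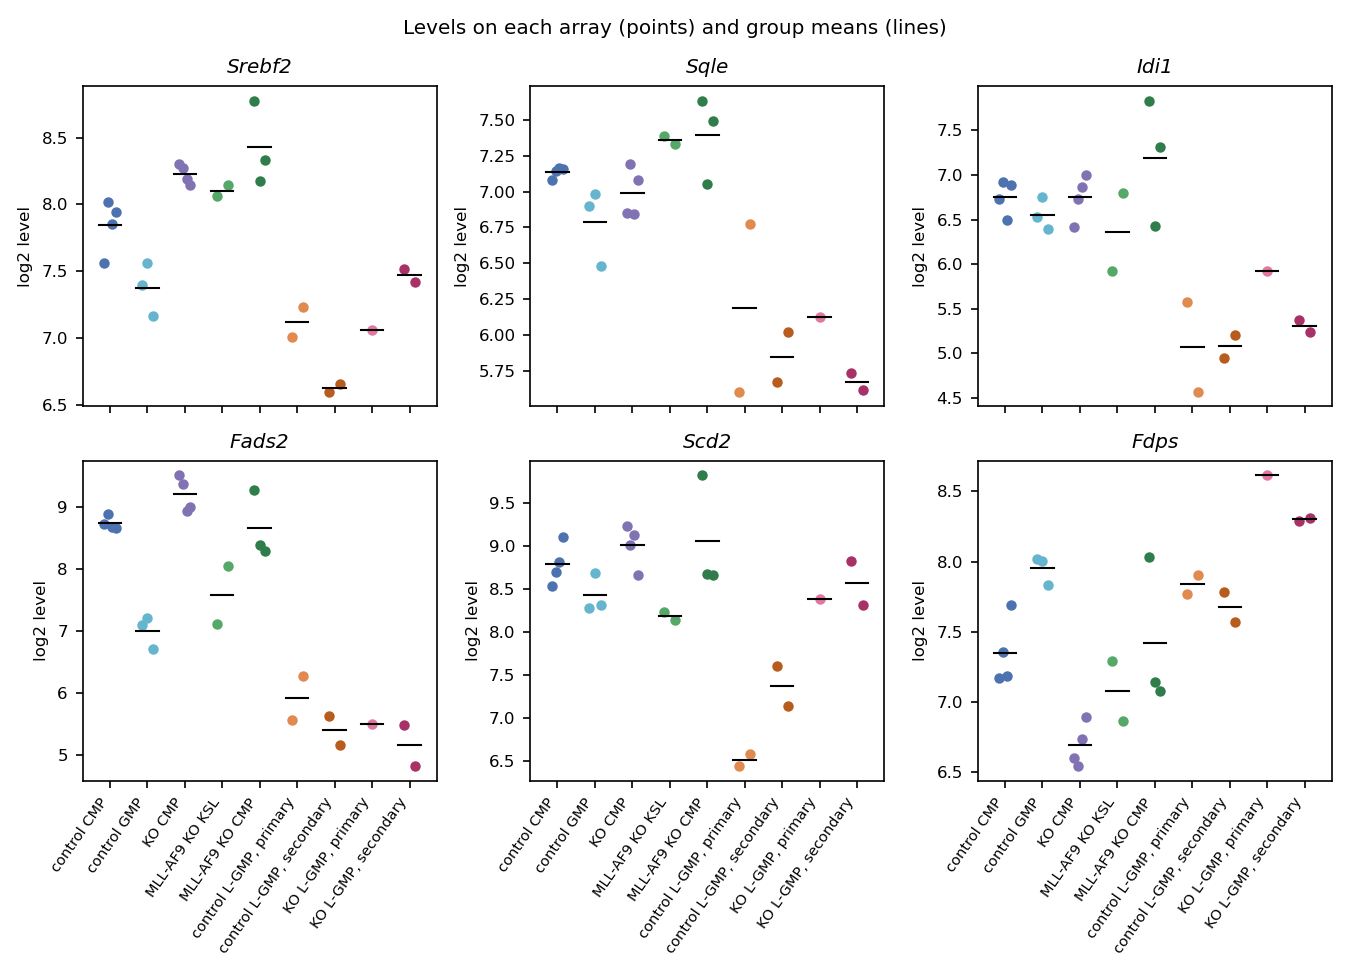
Log2 level (vertical axis, own scale per gene) of Srebf2, Sqle, Idi1, Fads2, Scd2 and Fdps on each array (points) in the 9 groups (horizontal axis), with the group mean as a line. Fads2 lies between 4.82 and 6.27 on the L-GMP arrays and at 6.70 or more on all others, Scd2 is low in the control L-GMPs only, and Fdps is highest in the knockout L-GMPs.

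With the 3 knockout arrays averaged to 1 sample, an alternative added after seeing the data, 9 of the 12 calls remained: Fdps, Sqle, Cyp51, Dhcr7, Srebf2, Stard4, Fasn, Fads1 and Fads2. A fit on the compared arrays alone called 3 (1.74% of all genes). Against the KSLs alone, also added after seeing the data, Idi1 (-0.75, adjusted p = 0.104) and Elovl1 (-0.14, adjusted p = 0.564) were not called. Erythroid markers fell here too (4 of 6, median -1.33), as did 2 of 5 mast cell markers (-2.50), and their part was not tested. Cell cycle genes had a median change of 0.30, with 3 of 11 higher.

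Set side by side, 10 genes fell in the control and in the knockout L-GMPs against the shared progenitors: Idi1, Sqle, Cyp51, Dhcr7, Srebf2, Stard4, Fasn, Elovl6, Fads1 and Fads2. The share of all genes that fell in both was not determined, and the shared progenitor arrays alone can make the 2 comparisons overlap. The second Idi1 probe set passed in neither comparison. Another 8 fell in control L-GMPs and did not pass in knockout L-GMPs. For 2 of these, Scd2 and Fdft1, the direct comparison of knockout with control L-GMPs passed the test, and for the other 6 it did not. Elovl1 fell in the knockout L-GMPs and did not pass in the control ones, and its difference between knockout and control L-GMPs did not pass either.

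Between knockout and control L-GMPs, 2 of the 33 genes rose and none fell, with 10 at an unadjusted p below 0.05, where 2.10% of all genes rose and 1.16% fell (limma). All 3 knockout arrays came from 1 leukaemia whose primary recipient had received GM-CSF and IL-3 vectors. Genotype cannot be told apart here from that leukaemia or from the cytokines. The median change was 0.11. A fit on the compared arrays alone called none of the 33 genes and 0.0552% of all genes, with 9 of the 33 at an unadjusted p below 0.05. In that fit Scd2 had an adjusted p of 0.149 and Fdft1 of 0.247 (limma). Scd2 was 8.39, 8.82 and 8.32 in the knockout arrays against 6.44, 6.59, 7.61 and 7.15 in the controls, without overlap, and rose by 1.53 ± 0.26 (2.89-fold, adjusted p = 0.00339, limma). Within the controls it was lower in the 2 primary arrays than in the 2 secondary ones, and without both primary arrays the difference was 1.10 (adjusted p = 0.0642). Averaging the 3 knockout arrays to 1 sample left 1.56 (adjusted p = 0.0883), since a single sample then stands for the genotype and is taken to vary like the other groups.

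Fdft1 was 7.23, 7.01 and 6.65 against 6.28, 6.51, 6.01 and 6.30, also without overlap, and rose by 0.75 ± 0.19 (adjusted p = 0.0443, limma). That call was lost without primary control replicate 2 (0.81), either secondary control (0.68 and 0.83) or any of the 3 knockout arrays (0.55, 0.66 and 0.85), and with the replicate number as a block (0.74, adjusted p = 0.112). Without primary control replicate 1, 4 genes passed, where 12.3% of all genes did. A second Fdft1 probe set changed by 0.49 ± 0.25 (adjusted p = 0.309 over all probe sets, limma) and the mean of the gene's probe sets by 0.62 (adjusted p = 0.113). Fdps (0.70 ± 0.20, adjusted p = 0.0698), Insig1 (-0.54 ± 0.16, adjusted p = 0.0698) and Dhcr7 (-0.48 ± 0.13, adjusted p = 0.0564) lay just outside the threshold. The differences for Fads2 (-0.33 ± 0.29), Sqle (-0.12 ± 0.22) and Srebf2 (0.39 ± 0.14) did not pass, which does not show that the genotypes are alike.

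Single markers from the lists of other cells also differed between these L-GMPs. The erythroid list had 1 of 6 higher, Car2, a carbonic anhydrase, at 9.93 ± 0.06 (n = 3) in knockout against 5.71 ± 0.42 (n = 4) in control arrays. Of the others, Car1 (4.56 against 5.97), Gata1 (5.08 against 5.47) and Slc4a1 (5.35 against 5.68) had lower means in knockout arrays. Klf1 (5.17 against 5.14) and Epor (5.26 against 5.23) had slightly higher ones. The mast cell list had 1 of 5 lower, Cpa3, a protease of mast cell granules, at 5.05 ± 0.61 against 9.72 ± 0.91, while Mcpt8 on the same list had a higher mean (8.90 against 8.21). The macrophage list had 1 of 6 lower, Vcam1, an adhesion molecule, at 5.02 ± 0.14 against 6.5 ± 0.53. None of 6 mature neutrophil markers passed, with a median change of -1.24, nor did any of 7 granulocyte-macrophage progenitor or 11 cell cycle genes (medians 0.20 and 0.17). High Xist was seen on 3 of 3 knockout and 1 of 4 control L-GMP arrays. With it as a covariate Fdft1 changed by 0.61 (adjusted p = 0.174, limma). The part of these in the lipid gene differences was not tested.

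Against normal GMPs, the control L-GMPs again had lower lipid synthesis genes: 19 of the 33 fell and none rose, where 14.7% of all genes fell and 10.6% rose. The median was -0.56, against -0.02 over all genes, and for 18 genes the arrays did not overlap (17.7% of all genes). The fall took in 4 of 6 mevalonate enzymes, 7 of 11 sterol enzymes, 2 of 6 regulators and 6 of 7 desaturases and elongases. Cell cycle genes fell in this comparison as well, 10 of 11 with a median of -0.89, and their part in the lipid gene changes was not tested. The L-GMPs came from transplanted mice and the GMPs did not, and this and any batch cannot be told apart from leukaemia.

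Elovl5 was 9.77, 10.40 and 10.19 in GMPs and 8.88, 8.18, 8.43 and 7.83 in control L-GMPs, and fell by 1.79 ± 0.19 (adjusted p = 4.22e-05, limma), the largest fall of the 33. Scd2 was 8.28, 8.69 and 8.32 in GMPs and fell by 1.48 ± 0.25 (adjusted p = 0.000875, limma). Fads2 was 7.10, 7.21 and 6.70, already lower than in CMPs, and fell by a further 1.35 ± 0.28. In all 3 genes every L-GMP array lay below every GMP array. Idi1 was 6.53, 6.75 and 6.39 in GMPs and fell by 1.48 ± 0.30 (its second probe set by 1.17), and Hmgcs1 was 6.83, 6.88 and 6.96 and fell by 1.03 ± 0.23. Mvd, the mevalonate diphosphate decarboxylase, was 5.62, 6.08 and 5.92 and fell by 0.83 ± 0.22. These 3 mevalonate enzymes also lay below the GMPs on every L-GMP array. Cyp51 fell by 0.77, Sqle by 0.77, Hsd17b7 by 0.70, Stard4 by 0.65 and Srebf2 by 0.50, and all 5 passed. Srebf2 was 7.40, 7.56 and 7.16 in GMPs, and 1 L-GMP array, primary replicate 2, overlapped them. Fdps, which rose against the progenitors, changed by -0.19 ± 0.19 and did not pass. Acaca, the acetyl-CoA carboxylase, changed by -0.31 and did not pass, while its second probe set changed by -1.22 ± 0.23 (adjusted p = 0.00235 over all probe sets, limma).

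Many of these calls were near the threshold, and 13 of them were lost without at least 1 of the 7 arrays (adjusted p up to 0.227, limma). The count was 6 without GMP replicate 2, where 13.9% of all genes passed, and 10 without GMP replicate 3, where 15.4% did. Without secondary L-GMP replicate 1 the median change was -0.49. Hmgcs1, Idi1, Scd2, Elovl1, Elovl5 and Fads2 held without any 1 array. The count was 11 after quantile normalisation (24.9% of all genes) and 9 with high Xist as a covariate (18.5%). High Xist was seen on 3 of 3 GMP arrays and on 1 of 4 control L-GMP arrays.

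**Figure D4:**
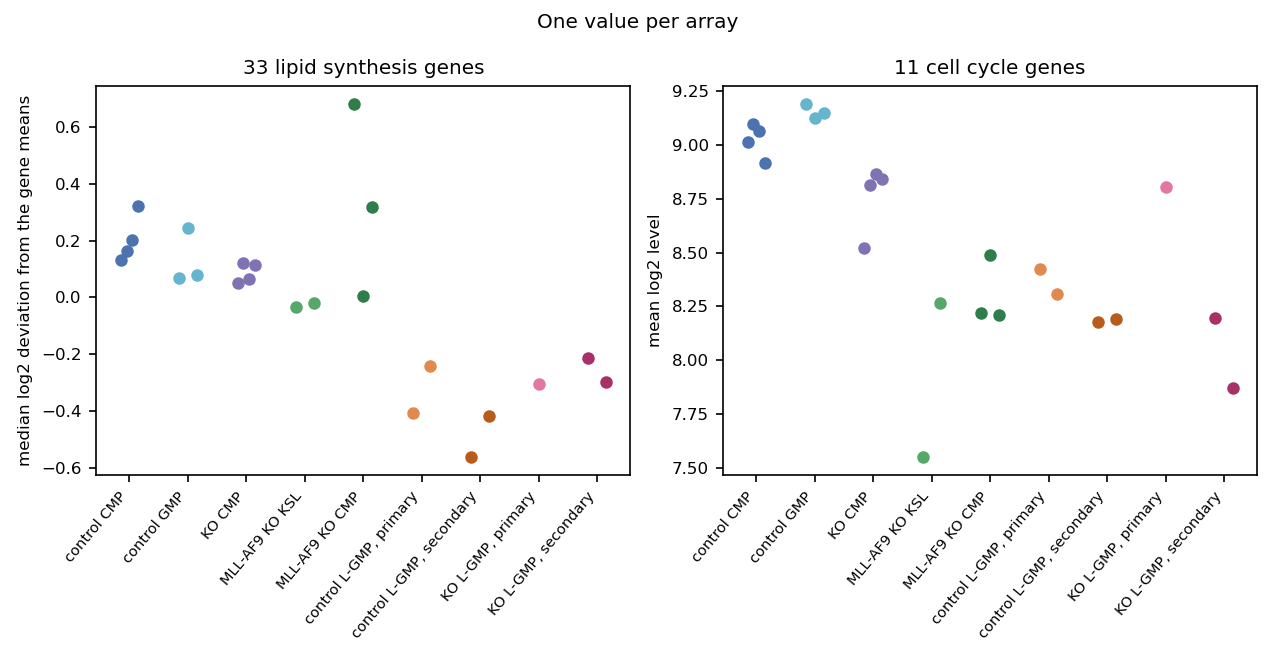
Left, the median log2 deviation of the 33 lipid synthesis genes from their means; right, the mean log2 level of 11 cell cycle genes; each point is 1 array, by group along the horizontal axis. On the left the 7 L-GMP arrays lie below all others, and on the right they lie below the GMPs but above the lower KSL array.

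In normal cells the list moved little. From control CMPs to control GMPs, 1 of 33 genes fell and none rose, where 0.331% of all genes fell and 0.717% rose, and the median was -0.06. That gene was Fads2, at 8.72, 8.88, 8.67 and 8.66 in CMPs and 7.10, 7.21 and 6.70 in GMPs, a fall of 1.73 ± 0.28 (3.31-fold, adjusted p = 0.00463, limma). The groups lay far apart, and the call held in every setting and without any 1 array. The next largest changes, Scd1 (-1.03 ± 0.37), Fdps (0.60 ± 0.19) and Fads1 (-0.57 ± 0.23), did not pass.

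Knockout CMPs had 2 genes lower than control CMPs and none higher, where 2.64% of all genes fell and 2.27% rose, and the median was -0.11. Ebp, the sterol isomerase late in the route, was 7.34, 7.29, 7.64 and 7.42 in control CMPs and 6.63, 6.87, 6.69 and 6.80 in knockout CMPs, and fell by 0.68 ± 0.11 (adjusted p = 0.00231, limma). The arrays did not overlap, and the call held in every setting. Fdps was 7.17, 7.36, 7.18 and 7.69 against 6.60, 6.54, 6.74 and 6.89 and fell by 0.66 ± 0.18 (adjusted p = 0.0456, limma), also without overlap. Its call was lost without each of the 8 arrays in turn, with changes of -0.54 to -0.72 and adjusted p up to 0.163, and with high Xist as a covariate, which 3 of 4 control but 1 of 4 knockout arrays showed (-0.68, adjusted p = 0.108, limma). Srebf2 changed by 0.38 ± 0.13, Elovl1 by -0.37 ± 0.12 and Fasn by -0.40 ± 0.15, and none of these passed. A fit on the 8 CMP arrays alone called 9 genes and array weights 6, with Ebp and Fdps in both, where 16.2% and 18.9% of all genes passed. Granulocyte-macrophage progenitor markers fell in 5 of 7 (median -3.29) and cell cycle markers in 2 of 11 (-0.30) between the same arrays, and their part was not tested.

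The knockout effect on Fdps differed between the settings: the L-GMP effect minus the CMP effect was 1.36 ± 0.27 (adjusted p = 0.0111, limma), from 0.70 in L-GMPs and -0.66 in CMPs. It was the only 1 of the 33 to pass, where 2.02% of all genes passed as higher and 0.782% as lower. It held without any 1 array but not with high Xist as a covariate (1.41, adjusted p = 0.0817) or with the knockout L-GMPs averaged to 1 sample (1.31, adjusted p = 0.119). The 2 effects for Scd2 differed by 1.31 ± 0.34, which did not pass (adjusted p = 0.0517). The knockout effect in L-GMPs rests on 1 leukaemia, and genotype cannot be told apart there from that leukaemia or its cytokine vectors. Without primary control L-GMP replicate 1 the count was 3 (8.04% of all genes), and without secondary control replicate 1, the primary knockout array or secondary knockout replicate 2 it was 2.

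Among the MLL-AF9 knockout progenitors, CMPs had 4 genes higher than KSLs and none lower, where 2.02% of all genes rose and 1.30% fell, and the median was 0.29. Pmvk, the phosphomevalonate kinase, was 6.17, 5.81 and 6.43 in CMPs and 5.07 and 4.91 in KSLs and rose by 1.14 ± 0.20 (adjusted p = 0.00715, limma). Dhcr7 was 7.61, 7.60 and 7.65 against 6.81 and 7.14 and rose by 0.65 ± 0.15. Elovl1 rose by 0.62 and Ebp by 0.57. In all 4 genes the CMP arrays lay above the KSL arrays. With the mouse as a replicate block, which uses mice 9 and 11 as pairs, 3 genes passed and 2 of the 4 remained, as Ebp (adjusted p = 0.0648) and Elovl1 (adjusted p = 0.0807) did not. Pmvk held without any 1 array. Dhcr7 was lost without KSL replicate 1 (0.48) or CMP replicate 3 (0.63), Ebp without KSL replicate 2 (0.41) or CMP replicates 1 or 3 (0.55 and 0.52), and Elovl1 without any but CMP replicate 2. The count was 12 without CMP replicate 2 (11.0% of all genes), 2 without CMP replicate 1 and 1 without CMP replicate 3. With array weights none passed, with 7 at an unadjusted p below 0.05.

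MLL-AF9 knockout CMP replicate 1, from mouse 9, had the highest median deviation of any array (0.68), and it held the highest value of Idi1, Lss, Cyp51, Srebf2 and Scd2. Against knockout CMPs without MLL-AF9, the MLL-AF9 knockout CMPs had 2 genes higher, Fdps (0.73 ± 0.19) and Dhcr7 (0.48 ± 0.13), and none lower, where 1.51% of all genes rose and 3.36% fell (limma, adjusted p = 0.0421 and 0.0402). Without that array, or without any 1 knockout CMP array, neither passed, with 6 or 7 of the 33 at an unadjusted p below 0.05. The count was 5 without replicate 2 (4.72% of all genes) and 1 without replicate 3 (10.2%) of the MLL-AF9 CMPs. It was 4 with the mouse block (17.0%), under which Dhcr7 did not pass (0.38, adjusted p = 0.138). That block takes the MLL-AF9 CMPs at the level fitted for mouse 9. Fads2 changed by -0.55 ± 0.28 and did not pass. Transplantation and the fusion cannot be told apart in this comparison.

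Between secondary and primary control L-GMPs, 1 gene fell and none rose, where 3.67% of all genes fell and 4.04% rose, and the median was -0.17. Dhcr7 was 6.22 and 6.32 in the secondary and 7.17 and 7.08 in the primary arrays, and fell by 0.85 ± 0.16 (adjusted p = 0.00641, limma). The secondary arrays lay within the range of the knockout L-GMPs (5.95 to 6.39), and the primary ones within that of control CMPs (6.90 to 7.29). Without primary replicate 1, 4 genes passed, where 15.4% of all genes did. With array weights none did, with 2 at an unadjusted p below 0.05. Srebf2 (-0.50 ± 0.18), Stard4 (-0.60 ± 0.24) and Scd2 (0.87 ± 0.32) did not pass.

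In none of the 10 comparisons did Mvk, Tm7sf2, Sc5d, Insig1, Insig2, Srebf1, Acly, Acaca or Scd1 pass the test. These 9 genes hold both INSIG genes and the fatty acid branch factor, but not passing does not show that a gene was unchanged. The second Acaca probe set did pass against GMPs. Srebf2 passed in all 3 comparisons of L-GMPs with other cells, which share arrays. Against GMPs its call was lost without GMP replicate 2 (-0.41, adjusted p = 0.0817) and after quantile normalisation (-0.37, adjusted p = 0.0544, limma).

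Other genes of lipid handling, 37 of a list of 49, moved in both directions. Against the MLL-AF9 knockout progenitors, 11 fell and 4 rose in control L-GMPs, where 10.5% of all genes fell and 8.51% rose. In knockout L-GMPs 7 fell and 7 rose, where 5.93% of all genes fell and 7.27% rose. Acss2, which makes acetyl-CoA from acetate, fell by 2.24 ± 0.22 and 1.45 ± 0.24 (adjusted p = 2.72e-06 and 0.000659, limma). The cholesterol exporter Abca1 fell by 1.36 and 1.04. Lpin1, a phosphatidate phosphatase, fell by 1.27 in control L-GMPs, and Lipa, the lysosomal acid lipase, rose by 1.17 in knockout L-GMPs. Erlin1, an endoplasmic reticulum protein that restrains SREBP activation, rose by 1.49 in knockout L-GMPs and fell by 0.69 in knockout CMPs. Against GMPs, 9 fell and 2 rose in control L-GMPs, where 14.7% of all genes fell and 10.6% rose. Among them was Sec24d, a coat protein of the vesicles that carry SCAP, which fell by 1.87 ± 0.41. Acsl5, which activates fatty acids, fell by 0.53 in knockout CMPs. Between control GMPs and CMPs none passed, with 5 of 37 at an unadjusted p below 0.05 (limma).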

How the data were processed

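RNA from sorted cells was amplified with the NuGEN Ovation Pico WTA kit after Trizol extraction, per the labels' protocols, and 23 samples were hybridised, 1 per array. The deposited values are log2 expression values made by the authors with RMA, per the submitters' processing notes, with no version named. The method corrects background, brings arrays to a common distribution and combines the probes of a set, which compresses changes of dim genes. The lowest deposited value was exactly 3 and the highest 13.64. The number of arrays limits the precision. No array pair was a duplicate (highest correlation 0.991).

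Of the 34760 probe sets, the platform annotation listed 1 symbol for 21640, more than 1 for 1321 and no symbol for 11799. The probe set with the highest mean stood for each of 954 genes with several. The 33 genes matched RefSeq by Entrez identifier.

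limma 3.58.1 (R 4.3.3) fitted 9 group means over all 23 arrays, with eBayes and a trended prior, with Benjamini-Hochberg adjustment over 19937 genes and a threshold of 0.05. L-GMP and progenitor comparisons averaged the group means with equal weight. Alternative settings and the omission of each array were run, and 4 settings were added after seeing the data: both primary control L-GMP arrays left out, CMPs or KSLs alone as the reference, and the knockout L-GMPs averaged to 1 sample. KSL and CMP arrays with the same number came from the same mice (9 and 11), and their deviations correlated at 0.45 and 0.26, so a fit with the mouse as a block was run as an alternative. Against arrays without a mouse number, that fit takes the MLL-AF9 knockout progenitors at the level fitted for mouse 9. For other groups that share numbers, the deviations correlated at -0.21 to 0.13. With so few arrays per group this cannot settle whether any came from the same mice.

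The genes and lists were chosen with earlier results of these data known, so no count over them is independent support. Genes outside the list were named where they passed, by size, at most 4 per comparison. Scanner files were not used here.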

Additional observations from a re-analysis of the deposited data

Results flagged for a closer look

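Among the groups of 4 arrays, 66 combinations of gene and group were examined for 1 array far from the others, which chance gives in about 1 of 20 (3.3 here), and 2 were found. Both were in knockout CMPs. Elovl1 was 9.236 in replicate 1 and 9.009 to 9.035 in the other 3, and Elovl6 was 7.538 in replicate 3 and 7.945 to 7.984 in the others. Neither gene passed between knockout and control CMPs.

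The knockout effect on Fdps differed between L-GMPs and CMPs by 1.358 on the log2 scale (limma interaction term), with the 3 knockout L-GMP arrays above the 4 control L-GMP arrays and the 4 knockout CMP arrays below the 4 control CMP arrays. The 3 knockout L-GMP arrays came from 1 leukaemia.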

How the results depend on the processing

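The 63 calls on single genes gave 1212 values under the alternatives. None changed direction, and 236 missed the threshold, 104 of 490 when 1 array was left out and 132 of 722 otherwise. Counts of genes passed, out of 33, moved by over 1.5 times as follows. Array weights gave 6 genes in place of 2 (knockout CMPs, where 18.9% of all genes passed), 5 in place of 1 (GMPs against CMPs, 6.3%), 1 in place of 2 (knockout against control L-GMPs), 11 in place of 19 (control L-GMPs against progenitors, 6.27%), 4 in place of 1 (difference of knockout effects), and 0 for MLL-AF9 CMPs against KSLs, against knockout CMPs and secondary against primary L-GMPs (limma, 7, 9 and 2 at an unadjusted p below 0.05). Fits on the compared arrays alone gave 9 for knockout CMPs (16.2% of all genes) and 2 for GMPs against CMPs (3.23%). They gave 0 between the L-GMP genotypes (0.0552%), and 4 and 3 for control and knockout L-GMPs against progenitors (2.47% and 1.74%). Control L-GMPs against GMPs had 12 (16.3%), the difference 4 (7.93%) and MLL-AF9 against knockout CMPs 1 (2.22%). MLL-AF9 CMPs against KSLs and secondary against primary L-GMPs had 0 (unadjusted 9, 4 and 3 for the counts of 0). High Xist as a covariate gave 1, 1 and 9 for knockout CMPs, the L-GMP genotypes and control L-GMPs against GMPs, and 0 for MLL-AF9 against knockout CMPs and the difference (unadjusted 6 and 5). Quantile normalisation gave 11 for control L-GMPs against GMPs and 4 between the L-GMP genotypes, median centring 1 for knockout CMPs, the mean of probe sets 1 between the L-GMP genotypes, and a filter above 5 gave 2 for secondary L-GMPs and 2 for the difference. Without both primary control L-GMP arrays 1 and 2 passed, and with the knockout L-GMPs averaged 0 and 0 (unadjusted 7 and 6), for the L-GMP genotypes and the difference.

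The replicate number was also used as a block, although the data cannot settle whether it pairs samples beyond mice 9 and 11. With it 1 gene passed in place of 2 for the L-GMP genotypes, 1 in place of 4 for MLL-AF9 CMPs against KSLs and 1 in place of 2 against knockout CMPs. With the mouse as a replicate block, 4 passed for MLL-AF9 against knockout CMPs, 3 for CMPs against KSLs, 19 for control L-GMPs against progenitors, 17 of them shared, and 16 in place of 12 for knockout L-GMPs against progenitors, all 12 shared. Apart from CMPs against KSLs, these block results take the progenitors at the level fitted for mouse 9. Leaving out 1 array gave 1 for knockout CMPs and for GMPs against CMPs, 1 to 4 for the L-GMP genotypes, 15 to 22 and 11 to 14 for control and knockout L-GMPs against progenitors, 1 to 12 for CMPs against KSLs, 1 to 4 for secondary L-GMPs, 0 to 5 against knockout CMPs, 6 to 16 against GMPs and 1 to 3 for the difference. The shares of all genes shifted too, from 1.78% to 14.3% for CMPs against KSLs and from 13.9% to 32.6% for control L-GMPs against GMPs. The cause of these shifts was not tested. Array weights were 0.26 to 0.54 for the MLL-AF9 knockout progenitors and 1.54 to 2.92 for untransplanted cells. The median changes ran from -0.77 to -0.42, -0.50 to -0.18 and -0.71 to -0.44 over the alternatives of the 3 L-GMP comparisons with other cells.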

Other observations

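Other genes of lipid handling also differed between secondary and primary control L-GMPs. Of the 37, 5 rose and 1 fell, where 4.04% of all genes rose and 3.67% fell. Mylip, a ubiquitin ligase that marks the LDL receptor for degradation, rose by 1.08 ± 0.29, and Rnf139, an endoplasmic reticulum ligase, by 0.86 ± 0.20. Erlin1 rose by 0.79 and Acsl4, which activates arachidonic acid, by 0.77 (adjusted p from 0.0179 to 0.0443, limma, 2 arrays in each group). Between MLL-AF9 knockout CMPs and KSLs, Slc25a1, the mitochondrial citrate carrier, was higher in CMPs by 0.67 and Hacd1, a dehydratase of fatty acid elongation, by 0.91.

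The knockout effect differed between L-GMPs and CMPs for 2 of the 37 genes, Lipa (1.52 ± 0.35) and Erlin1 (1.10 ± 0.24), both with a higher knockout effect in L-GMPs (adjusted p = 0.0261 and 0.0181, limma). Of all genes, 2.02% passed as higher and 0.782% as lower. Lpin1 was higher in knockout than in control L-GMPs by 0.64 ± 0.16, and Me1, the malic enzyme that supplies NADPH, was higher in MLL-AF9 knockout CMPs than in knockout CMPs by 0.63 ± 0.15. The knockout L-GMPs in these comparisons came from 1 leukaemia.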
